A study of Mus musculus with 15 samples.

Results

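Clustered protocadherins are cell-surface adhesion proteins of the cadherin superfamily, encoded by 3 gene clusters (alpha, beta and gamma) that stand side by side on 1 chromosome. In the alpha and gamma clusters each member has its own promoter and its own large variable exon, which is spliced to a common set of constant exons at the 3′ end of the cluster, whereas beta members are single-exon genes. The promoters are selected with the help of CTCF and cohesin and can be silenced by DNA methylation and SMCHD1. The proteins bind like copies on neighbouring cells, and they are best known for self-recognition and survival of neurons.

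The members were all rows named as an alpha, beta or gamma cluster protocadherin whose mean over the 15 libraries was at least 3, in the deposited unit of reads divided by 1 size factor per library. This rule kept 50 of 24656 listed genes, and 56 rows of the 3 clusters were listed in all. They comprised 7 of 12 alpha rows, 21 of 22 beta rows and 22 of 22 gamma rows. Since the mean level chose them, that level is given as a description only. Pcdha2 at 3.30 and Pcdha9 at 3.34 lay just inside the limit, and Pcdha8 at 2.72 just outside. The 5 others outside were Pcdha1, Pcdha12, Pcdhac1, Pcdhb1 and 1 of the 2 rows that carry the symbol Pcdha11, with means of 0.657 to 1.87.

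The libraries came from ovaries of UM-HET3 mice, a genetically heterogeneous stock, in 3 groups of 5. One group was control at 6 months of age, the second was control at 12 months, and the third was 12 months old after receiving canagliflozin, an inhibitor of the kidney glucose transporter SGLT2, for the last 6 of those months. No allele or transgene is named for any group, and the dose is not given in the sources used here. The protocol text describes RNA from 1 ovary of each mouse and directional poly(A) libraries, and its extraction sentence names the 12-month groups only, so age and preparation cannot be told apart. Because whole ovaries were measured, fewer cells of a type and less RNA per cell cannot be told apart.

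Every library held 8472205 to 13629491 recovered reads. Changes were tested with limma on log2(value + 1) over 17569 genes that reached a value of 10 in at least 5 libraries, and a gene was called at a Benjamini-Hochberg adjusted p under 0.05. Of the 50 members, 44 entered the test: 2 alpha, 20 beta and 22 gamma. Pcdha2, Pcdha3, Pcdha9, Pcdha11, Pcdhac2 and Pcdhb21 did not reach the filter. Of the 44, 40 would have passed on the 12-month libraries alone, all 22 gamma members among them, and the 4 that needed 6-month libraries were Pcdha4, Pcdha5, Pcdhb2 and Pcdhb6.

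How far a row can be assigned to 1 member differs by cluster. In the GENCODE M21 annotation all 12 alpha genes share 3 exons of 59, 89 and 2712 bases, and all 22 gamma genes share exons of 59 and 89 bases, with a further exon of 1971 bases shared by 17 of them. Between 47.7% and 56.1% of the 100-base stretches of an alpha member's exons recur in another member, against 25.9% to 62.7% for gamma and 0% to 7.73% for beta. Pcdhgc4 also has an annotated complete transcript with only 153 bases ahead of the shared exons, and Pcdhgc3 has one with 1469. The shortest complete transcripts of the other 20 gamma genes hold 2499 to 2961 bases there. Such bases need not belong to 1 member: of the 4727 exon bases of Pcdhga4, 1570 lie in no other member. How reads from shared exons were divided, and whether strand was used, is not given in the sources used here, so each alpha or gamma value is the authors' assignment to that name, and the effect of that assignment was not tested.

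Per kilobase of exon, the level was highest for Pcdhgc3 at 364, the mean of the 15 libraries, followed by Pcdhgc4 at 292 and Pcdhb9 at 82.0. The next members on this per-length scale were Pcdhb20 at 26.1, Pcdhb7 at 23.1, Pcdhga4 at 22.6, Pcdhgc5 at 22.2 and Pcdhb17 at 20.4. The median member stood at 0.721 per kilobase in the alpha cluster, 8.12 in the beta cluster and 12.3 in the gamma cluster, with ranges of 0.615 to 1.81, 2.05 to 82.0 and 4.54 to 364. Within the gamma cluster the order of the top pair depended on age: Pcdhgc3 stood at 714 and Pcdhgc4 at 62.0 per kilobase at 6 months, and they stood at 230 and 352 in the 12-month controls.

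The C-type gamma members, Pcdhgc3, Pcdhgc4 and Pcdhgc5, lie nearest the constant exons. Pcdhgc4, the member that neurons require for survival, was higher with age in the control ovaries, and Pcdhgc3, whose intracellular part binds Axin1 and dampens Wnt signalling, was lower. Pcdhgc4 was 112.8, 635, 628, 143 and 215 in replicates 1 to 5 at 6 months, 1984, 2214, 2131, 1869 and 1650 in the 12-month controls, and 2349, 2673, 2811, 3141 and 1941 with canagliflozin. At 6 months replicates 2 and 3 were well above the other 3 libraries, and every 12-month library exceeded all 5 of them. The difference between 12-month and 6-month controls was 2.86 on the log2 scale (SE 0.41, 95% interval 1.99 to 3.74, limma adjusted p = 0.000784), a 7.28-fold higher level, which placed Pcdhgc4 at rank 23 of 17569 genes by size of rise.

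Pcdhgc3 was 4325, 4216, 3358, 4012 and 3720 at 6 months, 1453, 1215, 497, 1370 and 1784 in the 12-month controls, and 456, 1192, 396, 825 and 1175 with canagliflozin. All 10 libraries from 12-month mice were below all 6-month libraries, with 12-month control replicate 3 far under its group. Pcdhgc3 fell by 1.75 on the log2 scale between the control ages (SE 0.35, 95% interval -2.49 to -1.001, limma adjusted p = 0.00534), a 3.35-fold lower level. Pcdhgc5 was 337, 446, 242, 276 and 153 at 6 months, 158, 103, 54.2, 111 and 174 in the 12-month controls, and 62.1, 116, 98.7, 130 and 83.1 with canagliflozin. Its 6-month replicate 5 lay among the 12-month controls but above every canagliflozin library, and it fell by 1.29 on the log2 scale between the control ages (SE 0.32, limma adjusted p = 0.0153).

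**Figure D1:**
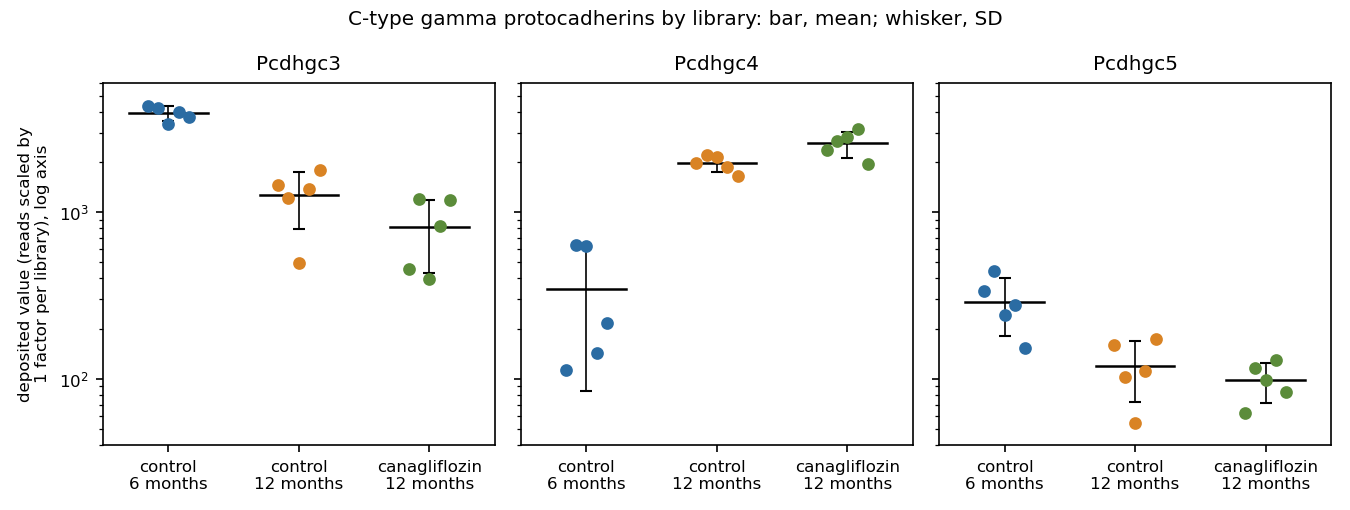
Values of Pcdhgc3, Pcdhgc4 and Pcdhgc5 (reads divided by 1 size factor per library, log axis) in each library of the 3 groups, with 1 point per library, a bar at the group mean and whiskers for the SD. For Pcdhgc4 the 6-month points run from 112.8 to 635 and the 12-month control points from 1650 to 2214, and for Pcdhgc3 the 6-month points run from 3358 to 4325 and those of both 12-month groups from 396 to 1784.

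The summed level of Pcdhgc3 and Pcdhgc4 moved less than either member. It ran from 3935 to 4851 at 6 months, from 2629 to 3437 in the 12-month controls and from 2805 to 3966 with canagliflozin, so the control ages did not overlap and the canagliflozin range reached just above the lowest 6-month sum. Pcdhgc4 made up 5.54% ± 4.18 (SD, n = 5) of the summed gamma level at 6 months, 49.0% ± 12.5 in the 12-month controls and 63.4% ± 11.8 with canagliflozin. Pcdhgc3 made up 62.4% ± 3.20, 29.7% ± 8.54 and 19.1% ± 7.56 in the same groups. These sums and shares combine members whose reads overlap, and they are a description with no test.

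Beyond the C-type, the gamma cluster has A and B members that differ in the sequence of their variable exons. Between 6 and 12 months in the control ovaries, 6 of 12 gamma A members and 3 of 7 gamma B members fell, and none rose. With the C-type this made 11 of 44 tested members lower and 1 higher. Over all 17569 genes, 7.01% were called lower and 5.4% higher, and all 12 called members were gamma. Groups did not overlap for 11 gamma members that were lower, against 8.07% of all genes, and for 1 that was higher, against 5.63%. The median gamma difference was -1.21 on the log2 scale, with 21 of 22 estimates below 0, while the median over all genes was 0.00.

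Pcdhga8 had the largest drop among them. It was 54.0, 73.6, 36.0, 96.7 and 43.6 at 6 months, 14.3, 12.6, 7.34, 13.3 and 26.1 in the 12-month controls, and 9.74, 14.9, 12.8, 20.8 and 13.0 with canagliflozin. No 12-month library of either group reached the lowest 6-month value, and the age difference was -1.99 on the log2 scale (SE 0.32, limma adjusted p = 0.00126). Pcdhga4, the gamma A member with the highest level per length, was 193, 238, 126, 264 and 188 at 6 months, 86.9, 80.5, 21.1, 75.9 and 53.8 in the 12-month controls, and 40.2, 99.8, 31.6, 43.6 and 58.0 with canagliflozin. It fell by 1.76 on the log2 scale between the control ages (SE 0.37, limma adjusted p = 0.00602), with no overlap.

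Pcdhga9 was 102, 80.9, 80.8, 98.3 and 101 at 6 months, 25.8, 24.3, 24.8, 55.4 and 33.0 in the 12-month controls, and 23.1, 49.2, 12.8, 24.8 and 48.0 with canagliflozin. Its 6-month libraries lay close together, and the control difference was -1.54 (limma adjusted p = 0.00564). Pcdhga7 was 116, 119, 102, 131 and 153 at 6 months, 64.9, 52.4, 25.7, 66.7 and 53.8 in the 12-month controls, and 20.7, 73.0, 18.7, 33.7 and 54.0 with canagliflozin. Its control groups did not overlap either, with a difference of -1.28 (limma adjusted p = 0.0208), and it lost that call without 12-month control replicate 3 or without 6-month control replicate 5.

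Among gamma B members, Pcdhgb4 was 85.3, 58.1, 67.2, 84.8 and 42.6 at 6 months, 18.1, 22.3, 5.51, 32.8 and 33.0 in the 12-month controls, and 35.3, 11.9, 24.7, 20.8 and 21.0 with canagliflozin. The groups of different age did not overlap, and the control difference was -1.72 (limma adjusted p = 0.0105). Pcdhgb7 was 193, 125, 160, 123 and 132 at 6 months, 67.8, 42.7, 22.9, 72.8 and 77.3 in the 12-month controls, and 28.0, 71.5, 18.7, 38.7 and 50.04 with canagliflozin. It too showed no overlap between ages, with a control difference of -1.46 (limma adjusted p = 0.0131).

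The other called members of these groups were Pcdhga10 at -1.52, Pcdhgb8 at -1.36 and Pcdhga6 at -1.02 on the log2 scale, the last with overlapping groups and not called without 12-month control replicate 2, 3 or 4 or without 6-month control replicate 2 or 4. Pcdhgb8 is annotated as a polymorphic pseudogene. Pcdhga3 at -1.23 and Pcdhgb6 at -1.19 had groups that did not overlap and limma adjusted p of 0.0814 and 0.0901. The smallest differences in these groups were those of Pcdhga11 at -0.19 and Pcdhga12 at -0.47, both uncalled. Summed over the A and B members, the level ran from 1534 to 1946 at 6 months, from 397 to 947 in the 12-month controls and from 372 to 949 with canagliflozin.

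**Figure D2:**
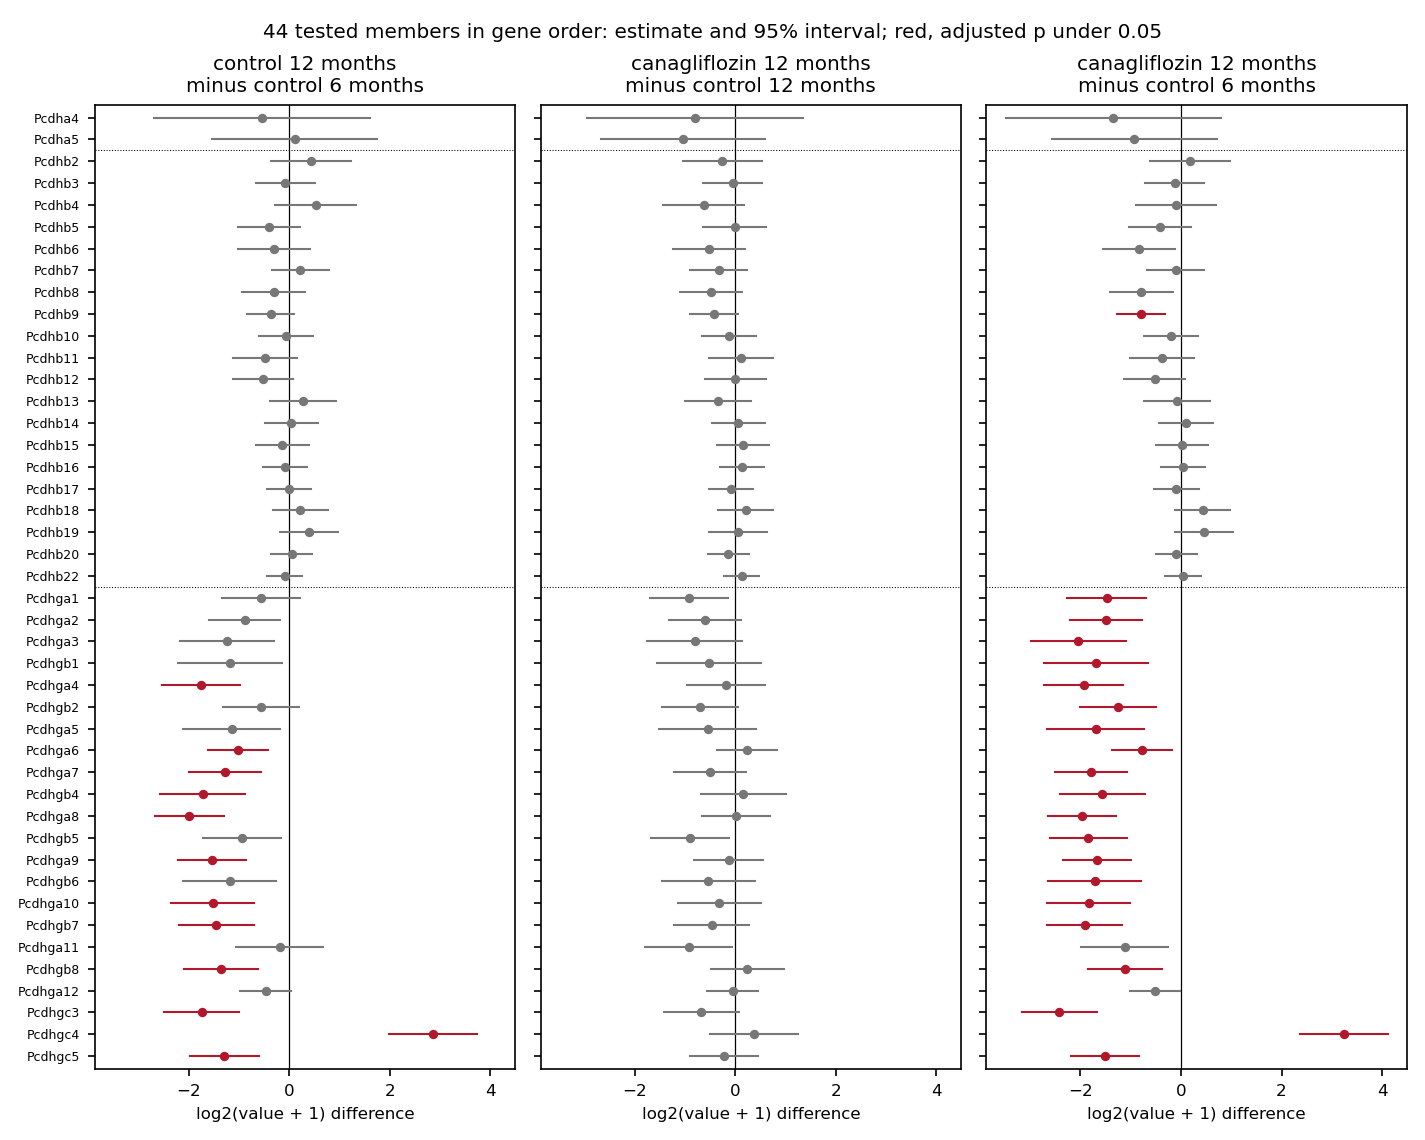
Difference in log2(value + 1) of each tested member, in gene order, for the 3 comparisons in separate panels, with points for the limma estimates and bars for their 95% intervals. In the panel of 12-month against 6-month controls the gamma estimates lie at a median of -1.21 with Pcdhgc4 alone at 2.86, and the beta estimates run from -0.52 to 0.52.

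No beta member was called between the control ages. The beta estimates ran from -0.52 to 0.52 on the log2 scale, with a median of -0.07, 8 above 0 and 12 below, and the smallest unadjusted p was 0.0859. None of the 20 tested beta members and neither alpha member had control groups that did not overlap. Summed beta levels were 1039 to 1338 at 6 months, 736 to 1341 in the 12-month controls and 745 to 1409 with canagliflozin.

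Pcdhb9, the leading beta member per length, was 265, 418, 299, 326 and 271 at 6 months, 260, 309, 145, 279 and 247 in the 12-month controls, and 156, 301, 134, 186 and 159 with canagliflozin. The 12-month control range met the 6-month range, and 4 of 5 canagliflozin libraries lay below every 6-month library. Its share of the summed beta level was 27.0% ± 2.67 (SD, n = 5) at 6 months, 22.6% ± 2.97 in the 12-month controls and 18.7% ± 2.86 with canagliflozin.

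The next 3 beta members by mean level overlapped between all groups. Pcdhb17 was 92.9, 88.1, 106, 116 and 77.3 at 6 months, 102, 104, 69.8, 115 and 91.2 in the 12-month controls, and 76.7, 122, 61.2, 77.3 and 128 with canagliflozin. Pcdhb20 was 92.9, 85.4, 93.5, 103 and 88.2 at 6 months, 100.2, 87.3, 79.9, 108 and 104 in the 12-month controls, and 70.6, 139, 67.1, 66.4 and 110.1 with canagliflozin. Both had group means between 90.5 and 96.4, and canagliflozin replicates 2 and 5 were the highest of their group for each. Pcdhb7 was 81.5, 97.2, 42.9, 107 and 66.4 at 6 months, 93.6, 93.1, 67.0, 136 and 65.1 in the 12-month controls, and 68.1, 83.4, 48.3, 60.5 and 100.1 with canagliflozin.

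The alpha cluster was near the limit of detection. The summed alpha level was 42.9 to 99.2 at 6 months, 30.6 to 53.8 in the 12-month controls and 23.7 to 63.1 with canagliflozin, resting on 24 to 117 reads per library. Of the 180 values of the 12 alpha rows, 93 were 0, and 2 to 10 rows were above 0 in a library. The leading row was Pcdha4 in 6 libraries, Pcdha5 in 5, Pcdha3 in 2 and Pcdha9 and Pcdhac2 in 1 each.

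Pcdha4 was 15.2, 22.7, 0, 25.4 and 12.9 at 6 months, 8.59, 0, 5.51, 16.4 and 18.2 in the 12-month controls, and 0, 17.9, 1.97, 1.98 and 7.01 with canagliflozin. Pcdha5 was 9.48, 7.27, 6.82, 14.4 and 6.94 at 6 months, 12.4, 9.70, 17.4, 4.10 and 7.82 in the 12-month controls, and 15.8, 20.9, 0, 0 and 8.01 with canagliflozin. Both ranges overlapped in every pair of groups, and neither member was called in any comparison. Pcdha3 was 2.84, 0, 6.82, 4.24 and 6.94 at 6 months, 0, 8.73, 0, 8.20 and 10.4 in the 12-month controls, and 14.6, 0, 14.8, 0 and 19.0 with canagliflozin. Pcdhac2, the C-type member nearest the alpha constant exons, was 4.74, 8.18, 2.92, 1.70 and 7.93 at 6 months, 0, 0, 7.34, 3.08 and 4.34 in the 12-month controls, and 3.65, 0, 0, 19.8 and 0 with canagliflozin. Within 1 group the same row could stand at 0 in one library and lead another, as Pcdha4 did in 6-month replicates 3 and 4.

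**Figure D3:**
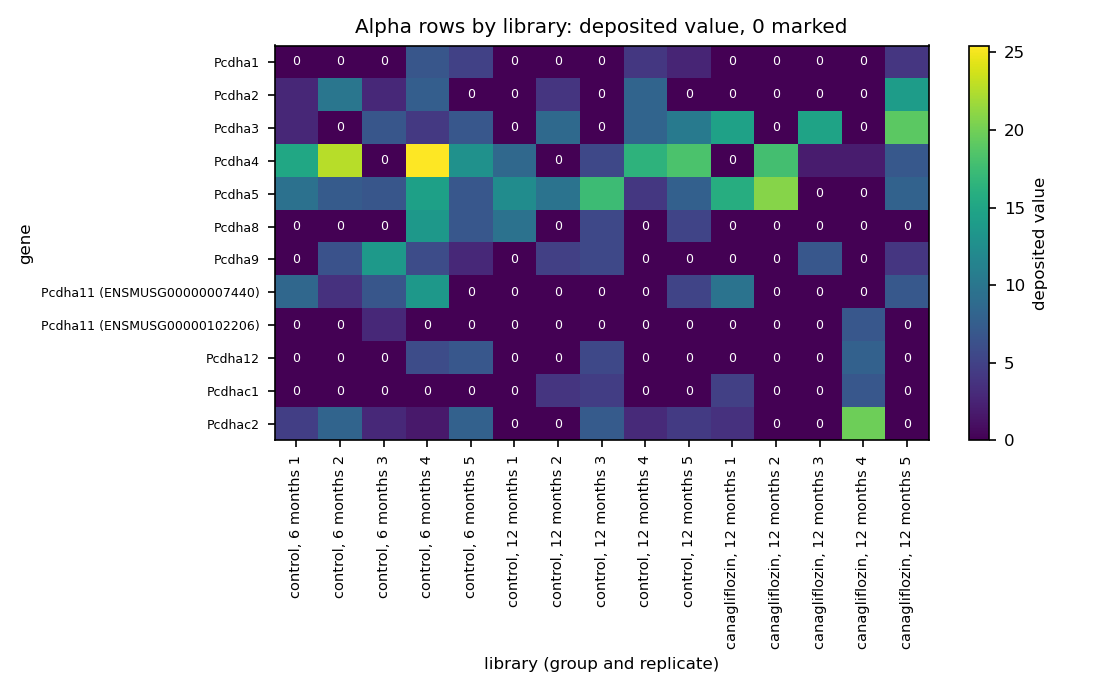
Level of each of the 12 alpha rows (reads divided by 1 size factor per library) in every library, grouped by age and treatment. Rows at 0 account for 93 of 180 values, and the leading row changes between libraries of the same group.

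Canagliflozin was compared with controls of the same age, which asks whether the drug moved these genes between 6 and 12 months. No member was called among the 44 tested, against 0.00569% of all 17569 genes, which was 1 gene. By limma 3 members, 6.82% of those tested, had an unadjusted p under 0.05, against 9.20% of all genes. The tests on recovered reads also called none, with 2 members under that unadjusted p by edgeR and 4 by DESeq2. No member had groups that did not overlap, while 0.467% of all genes lay wholly lower and 0.586% wholly higher with the drug. The gamma median was -0.48 on the log2 scale, with 17 of 22 estimates below 0, the beta median was -0.07 and the alpha median -0.91, over a median of 0.00 for all genes.

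For Pcdhgc4 the treated group differed from 12-month controls by 0.38 (95% interval -0.49 to 1.25, limma adjusted p = 0.776). For Pcdhgc3 the difference was -0.67 (95% interval -1.42 to 0.07, limma adjusted p = 0.564), and for Pcdhb9 it was -0.42 (95% interval -0.89 to 0.05). The members with the smallest p were Pcdhga1 and Pcdhgb5.

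Pcdhga1 was 10.95, 20.9, 3.95, 11.9 and 18.0 with canagliflozin, 25.8, 17.5, 18.4, 28.7 and 26.1 in the 12-month controls, and 27.5, 68.1, 25.3, 34.8 and 27.8 at 6 months. Canagliflozin replicates 2 and 5 overlapped the 12-month controls, and the difference was -0.92 (SE 0.37, limma adjusted p = 0.490). Pcdhgb5 was 9.74, 31.3, 9.87, 22.8 and 24.0 with canagliflozin, 46.8, 18.4, 19.3, 43.1 and 60.8 in the 12-month controls, and 61.6, 54.5, 75.0, 75.5 and 64.4 at 6 months. The 3 highest treated libraries overlapped the 2 lowest 12-month controls, with a difference of -0.90 (SE 0.36, limma adjusted p = 0.495).

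**Figure D4:**
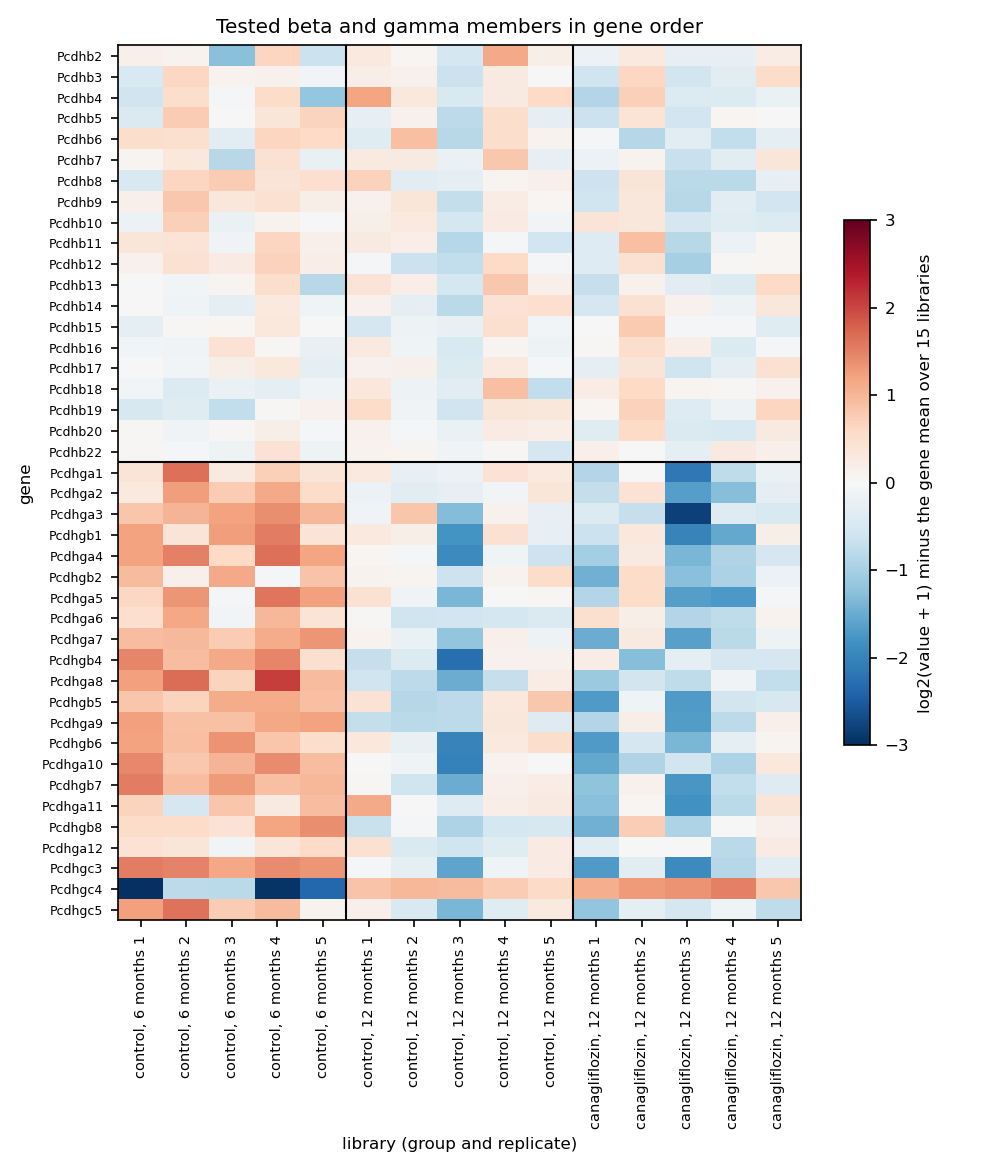
Level of each of the 20 tested beta and 22 gamma members in every library as log2(value + 1) minus the member's mean over the 15 libraries, with members in gene order and libraries by group. The gamma A and B members are highest in a 6-month library for 18 of 19 members, and no beta or gamma estimate between the 12-month groups was called.

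Treated ovaries were also compared with the 6-month controls, which are the same 5 libraries used in the age comparison, so the 2 sets of differences are not independent. Here 20 of 44 members fell and 1 rose, against 14.9% and 13.5% of all genes. The gamma cluster supplied 19 of the 20, with 10 of 12 A members, 7 of 7 B members, Pcdhgc3 and Pcdhgc5. Groups did not overlap for 14 lower members, all gamma, against 10.4% of all genes, and for 2 higher, Pcdhgc4 and Pcdhb18, against 8.05%. The medians were -1.69 for gamma, -0.10 for beta and -1.14 for alpha on the log2 scale.

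Pcdhgc4 was 9.46-fold higher than at 6 months (log2 3.24, SE 0.41, limma adjusted p = 0.000125), beside the 7.28-fold of the 12-month controls. Pcdhgc3 differed by -2.42 (SE 0.35, limma adjusted p = 0.000278), beside -1.75 in the 12-month controls. Pcdhgb5 differed by -1.84 (limma adjusted p = 0.00172), beside an uncalled -0.94, and Pcdhga1 by -1.48 (limma adjusted p = 0.00741), beside an uncalled -0.56. Those differences between the 12-month groups are the ones tested above, and none was called. Pcdhb9 was the only beta member called, at -0.79 (SE 0.22, limma adjusted p = 0.0151), and Pcdhb18 at 0.43 was not called (limma adjusted p = 0.221). Pcdhga6 was called at -0.78 (limma adjusted p = 0.0497) and lost the call under 19 of 29 alternatives, and Pcdhgb8 was called at -1.12 and lost it under 5, among them without canagliflozin replicate 1 or 3 and without 6-month control replicate 4 or 5. The gamma members not called were Pcdhga11 at -1.12 (limma adjusted p = 0.0506) and Pcdhga12 at -0.52 (limma adjusted p = 0.115).

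Gamma members also varied more within groups than genes of like level. The residual SD lay above the trend of all genes for 22 of 22 gamma members, with a median ratio of 1.66, against 12 of 20 beta members with a median ratio of 1.05 and 54.0% of all genes. The ratio was 4.12 for Pcdhgc4 and 3.49 for Pcdhgc3. Among the A and B members the lowest value stood in canagliflozin replicate 3 for 9 of 19, in 12-month control replicate 3 for 5, in canagliflozin replicate 1 for 3 and in canagliflozin replicate 4 for 2. Gamma members share exons and had their low values in the same libraries. Counts of gamma members, here and above, are therefore not counts of separate observations.

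Those 4 libraries were also the ones with the lowest level of long genes. Measured as the median log2 deviation of the longest 20% of genes minus that of the shortest 20%, they lay between -0.36 and -0.24, and the other 11 libraries between -0.16 and 0.28. The ratio of Pcdhgc4 to Pcdhgc3 was 7.10 in canagliflozin replicate 3, 5.15 in replicate 1, 3.81 in replicate 4 and 4.28 in 12-month control replicate 3, and it was 0.925 to 2.24 in the other 6 libraries of that age. At 6 months the ratio was 0.0261 to 0.187, in libraries with a length value of -0.16 to 0.28. The matching value for GC content was 0.11 to 0.24 at 6 months and -0.25 to -0.02 in the 12-month controls, without overlap, and -0.18 to 0.17 with canagliflozin, which overlapped both. Canagliflozin replicate 4, at 0.17, lay within the 6-month range of GC values with its ratio of 3.81, and this is 1 library. Genes were also split by GC content into sets of 20%, numbered 1 to 5 from lowest to highest. Tested beta members lay in sets 1 to 3 and gamma members in sets 3 to 5. The median control age difference over all genes of the set was 0.16 in set 1 and -0.12 in set 5. Between the control groups age and GC value cannot be told apart, and a part of either trend in the ratio was not tested.

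Without those 4 libraries the control age difference was 2.83 for Pcdhgc4 (SE 0.51, limma adjusted p = 0.00743) and -1.44 for Pcdhgc3 (SE 0.11, limma adjusted p = 0.000191). There 14 members were called, the 12 above with Pcdhga3 and Pcdhgb6. Those 4 libraries also held the 4 lowest Pcdhgc3 values and, between them, the lowest value of every A and B member. Leaving them out removed low values of the members themselves. The Pcdhgc3 SE, 0.35 with all libraries, shrank with them, so its smaller p and the added calls are no further support. After adjusting each library for its trends with length and GC content, the differences were 3.03 and -1.56 (limma adjusted p = 0.00106 and 0.00915), and the same 12 members were called. Against the 6-month controls, with 2 treated libraries left, 13 members were called instead of 21. Pcdhb9, Pcdhga1, Pcdhga2, Pcdhga5, Pcdhga6, Pcdhga9, Pcdhgb1, Pcdhgb2 and Pcdhgb8 lost the call, Pcdhb9 at -0.51 (limma adjusted p = 0.161), and Pcdhb19 gained it.

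**Figure D5:**
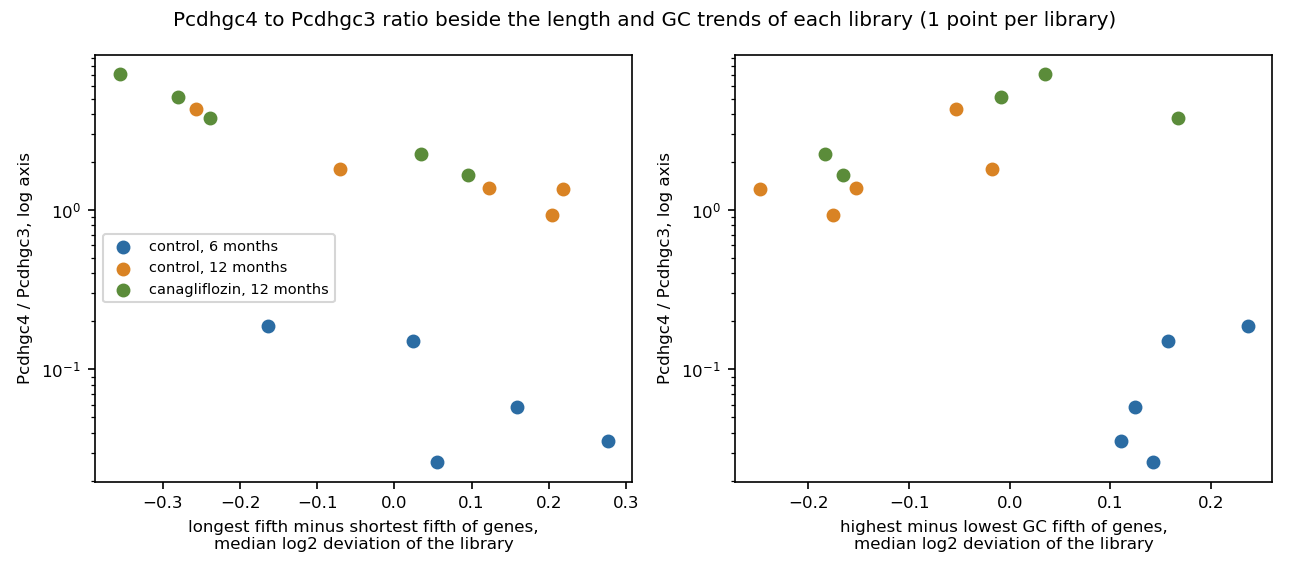
Ratio of Pcdhgc4 to Pcdhgc3 (log axis) in each library against that library's trends in 2 panels: its length value, the median log2 deviation of the longest 20% of genes minus that of the shortest 20%, and the same value for the 20% of genes with the highest and the lowest GC content, with 1 point per library coloured by group. The 6-month points lie between 0.0261 and 0.187 and all 12-month points between 0.925 and 7.10, and the 4 libraries with the lowest length value have the 4 highest ratios.

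Genes beside the clusters gave a local comparison. Diaph1, a formin that lies next to the gamma cluster on the opposite strand, had a mean of 831 at 6 months, 817 in the 12-month controls and 875 with canagliflozin, with an age difference of -0.02 (limma adjusted p = 0.873). BC037039, annotated antisense at the start of Pcdhgc3, had means of 29.8, 19.9 and 25.3, with an age difference of -0.55 (limma adjusted p = 0.127). Reads of an antisense gene and of Pcdhgc3 can be told apart only if strand was used in counting.

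Of 25 genes for architecture and silencing of the clusters, 8 rose and 2 fell between the control ages, with a median of 0.06 on the log2 scale. Over all genes 5.4% were called higher and 7.01% lower, so the lower count is near that share and the higher count is above it; no test was made of the list. Tet2, which oxidises methylated DNA, rose from 360 ± 22.4 to 763 ± 110.3 (SD, n = 5 each, log2 1.07, limma adjusted p = 4.7e-05). Nipbl, which loads cohesin, rose by 0.54, and Pds5a and Wapl, cohesin regulators, by 0.38 and 0.39. Smchd1 rose by 0.33 and the maintenance methyltransferase gene Dnmt1 fell by 0.30 on the log2 scale. Ctcf differed by 0.02 and was not called.

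Of 22 signalling and proteolytic partners, 1 rose and 4 fell, with a median of -0.18, and the single rise is near the 5.4% of all genes. Wasf2 and Cyfip1, components of the WAVE actin regulator, fell by 0.69 and 0.46 on the log2 scale, Ncstn, a gamma-secretase subunit, by 0.34, and Axin1, a scaffold of the beta-catenin destruction complex, by 0.37. The called member that rose was Abi2, at 0.29. Of 10 non-clustered protocadherins, 1 fell, near the 7.01% of all genes, and none rose, with a median of -0.16. The called gene was Pcdh1, from 431 to 225 (log2 -0.94, limma adjusted p = 0.00198). Of 24 other cadherins 5 fell and none rose, with a median of -0.37. The 4 with the smallest p were Dchs1 at -0.92, Cdhr5 at -1.39, Clstn1 at -0.53 and Celsr2 at -0.44.

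Against the 6-month controls, the treated ovaries had 8 higher and 4 lower of 25 architecture genes, 2 higher and 5 lower of 22 partners, 2 higher and 3 lower of 10 non-clustered protocadherins, and 1 higher and 7 lower of 24 other cadherins. Over all genes 13.5% were higher and 14.9% lower in this comparison. The 4 lower architecture genes are near that share, and the 2 higher partners and the 1 higher cadherin are below it. No gene of these 4 lists was called between the treated and control groups at 12 months.

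Markers of cell types were measured beside the members, and their part in the results was not tested. Of 15 listed nerve and neuron genes 1 had a mean under 1, and their summed level was 906 to 1144 at 6 months, 757 to 1648 in the 12-month controls and 693 to 2223 with canagliflozin. None of the 10 tested was called between the control ages, and 1 of 7 tested Schwann and satellite glia markers was lower. Of 14 fibroblast and stroma markers 5 were lower, and their sum was 54718 to 77706 at 6 months, 26919 to 50539 in the 12-month controls and 28923 to 41384 with canagliflozin, with no overlap between ages. Of 12 smooth muscle and pericyte markers 6 were lower, with sums of 19310 to 25056, 11924 to 18718 and 11568 to 21179.

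Granulosa markers summed to 35403 to 59838 at 6 months, 52076 to 97119 in the 12-month controls and 55089 to 104070 with canagliflozin, and fat markers to 3470 to 17899, 2841 to 10183 and 3485 to 16301. By single genes these and the other lists gave 2 of 14 endothelium markers and 2 of 12 macrophage markers lower. They gave 3 of 11 granulosa, 1 of 10 theca and luteal, 1 of 12 surface epithelium and 5 of 9 fat markers higher, and none of 12 oocyte markers called. These counts stand beside 7.01% of all genes lower and 5.4% higher, and lists with 1 called gene are within 1 gene of those shares. Of the called fat markers, Adipoq, Retn, Cidec and Cfd had low 6-month means of 0.90, 1.30, 2.42 and 2.86, and Fabp4 had 40.7. The fat sum went the other way, with a median of 7907 at 6 months and 5886 in the 12-month controls. All 14 oocyte and all 11 granulosa markers listed had a mean of at least 1. So did all listed fat, macrophage, endothelium and surface epithelium markers, so reaching this level does not identify the tissue. Between the treated and control groups at 12 months no marker of these lists was called.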

How the data were processed

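Polyadenylated RNA of mouse ovaries was measured in 15 libraries. The deposited values are a signal that the authors made by dividing each library's reads per gene by 1 size factor. All values up to a set limit of reads gave whole reads within 0.1 of a read. Higher values were rounded to whole reads without this check. The recovered reads were 8472205 to 13629491 per library. The submitters' processing notes give Partek 11.0 as the software and mm39 as the build, without settings. Lengths and shared exons came from GENCODE M21 (GRCm38, another build), which matched 23876 of 24656 genes, so no coordinates are printed.

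limma 3.58.1 (R 4.3.3, trend and robust) was fitted to log2(value + 1) of all 15 libraries together, so fold changes understate those of low genes. Genes with a value of 10 in at least 5 libraries were kept, and p-values were adjusted over 17569 genes at a threshold of 0.05. edgeR 4.0.16 and DESeq2 1.42.0 were run on the recovered reads as alternatives. The fit was tested on simulated data, with 50 genes changed at each size. For canagliflozin against 12-month controls it recovered 36% of 1.5-fold, 76% of 2-fold and 62% of 0.5-fold changes. For the control ages it recovered 26%, 68% and 68%, so changes of these sizes can go uncalled. False calls were 5 of 136 and 4 of 131 calls. Other alternatives were the pseudocount, the filter, the scaling, fits of 2 groups, a replicate block, a threshold of 0.1 and leaving out each library. Corrections for length and GC content, and leaving out 4 libraries, were chosen after seeing the data. Values per library are printed for the 4 highest members of each cluster, for up to 6 called members per comparison with the smallest p, and for the 2 members with the smallest p. From gene lists, called genes are named, at most 4 by smallest p; Smchd1, Dnmt1, Ctcf and Abi2 were added after their values were seen. Members and lists were chosen with earlier results of these data known. The labels give separate mice for the 12-month libraries; for the 6-month libraries nothing says so, and p-values measure the spread between these samples.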

Additional observations from a re-analysis of the deposited data

Results flagged for a closer look

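In 66 checks of a group of 5 libraries, a single library lay far from the other 4 in 5 cases, and chance flags about 1 in 20. Pcdhac2 was 19.8 in canagliflozin replicate 4 and 0 to 3.65 in the others. Pcdhga1 was 68.1 in 6-month control replicate 2 and 25.3 to 34.8 in the others, and Pcdhga9 was 55.4 in 12-month control replicate 4 and 24.3 to 33.0 in the others. The summed alpha level was 99.2 in 6-month control replicate 4 and 42.9 to 58.1 in the others. The summed gamma level was 3080 in 12-month control replicate 3 and 4241 to 4543 in the others.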

How the results depend on the processing

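No called difference of a member reversed its sign under any alternative run, nor did those of Pcdhga1 and Pcdhgb5 between the 12-month groups. The sign of other uncalled differences was not followed through all alternatives, and some near 0 did change. Without the 4 libraries with the lowest level of long genes, Pcdhga4 went from -0.18 to 0.06 between the 12-month groups and Pcdhga8 from 0.02 to -0.18. Between the control ages, 10 to 15 members were called under every alternative (10 to 13 when 1 library was left out), Pcdhgc4 and Pcdhgc3 each time. No member was called between the 12-month groups under any setting. Against the 6-month controls, 19 to 23 members were called when 1 library was left out, and 13 without the 4 libraries with the lowest level of long genes, where all genes called fell from 4982 to 2400. With a filter of 50 in at least 5 libraries, 15 members were called. Pcdhga1, Pcdhga2, Pcdhga3, Pcdhga8, Pcdhgb1 and Pcdhgb4 did not reach that filter. Over all genes the 1 call between the 12-month groups became 2 without a filter, 0 in a fit of these groups alone, 3 with a replicate block, 11 at a threshold of 0.1, 9 with edgeR, 63 with DESeq2, 0 after the length and GC correction, 0 without the 4 libraries, and 0 to 37 when 1 library was left out, 37 without canagliflozin replicate 5, 2 without 12-month control replicate 3 and 0 without any other single library. The cause of these changes was not tested. Deviations of same-numbered libraries correlated at -0.30 to 0.25. Libraries with different numbers were not set beside them, so these values cannot decide whether replicate numbers pair the libraries. With the replicate block 13, 0 and 21 members were called for age, for the drug at 12 months and for treated against 6-month ovaries. Alpha rows rest on 24 to 117 reads per library, and the 2 tested, Pcdha4 and Pcdha5, had standard errors of 1.01 and 0.77 on the log2 scale.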
